A study of Mus musculus with 6 samples.

Results

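The genes described here make serine, move its carbon into the folate cycle, make asparagine, and bring amino acids into the cell. They are 10 of the 24493 genes in the deposited expression table, taken by their symbols: Phgdh, Psat1, Psph, Shmt1, Shmt2, Mthfd2, Asns, Slc7a5, Slc3a2 and Chac1. All 10 were among the 11549 genes that reached a TPM (a length-corrected transcript abundance) of at least 1 in at least 2 libraries. The 6 sequenced libraries are of KPCY cells of the C57BL/6 strain, which are mouse pancreatic tumour cells from a genetically engineered model with a yellow fluorescent label. Each library is a bulk sample, in which fewer cells of a type and less RNA per cell cannot be told apart. The cells carried hairpin 2 against Pthlh in 2 libraries, hairpin 1 against Pthlh in 2 libraries, and the non-targeting hairpin shNT in 2 libraries. Pthlh encodes parathyroid hormone-related protein, a secreted peptide. The design text mentions 2 parental clones, but no library is assigned to either, so a difference between hairpins and a difference between clones cannot be told apart. A label field describes tumour cells sorted from animals and the protocols describe culture in DMEM, and which came last before RNA extraction is not settled. The sources do not say whether replicates were grown separately. Every p-value below therefore measures the spread between 2 libraries of a group, which may be technical. Unless stated otherwise, this spread was pooled over all 3 groups. Leaving out a hairpin 1 library thus alters the spread used for hairpin 2, but not the hairpin 2 change. TPM does not keep read numbers, so the depth of the libraries is unknown.

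As background, serine is made from a glycolytic intermediate in 3 steps, by phosphoglycerate dehydrogenase (Phgdh), phosphoserine aminotransferase (Psat1) and phosphoserine phosphatase (Psph). The serine hydroxymethyltransferases of the cytosol (Shmt1) and of mitochondria (Shmt2) then pass a carbon of serine to folate, and mitochondrial Mthfd2 oxidizes it for purine and thymidine synthesis. Asparagine synthetase (Asns), the large neutral amino acid exchanger made of the light chain Slc7a5 and the heavy chain Slc3a2, and the glutathione-cleaving enzyme Chac1 are known targets of ATF4, the transcription factor of the amino acid response, as are several of the serine and folate enzymes.

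In brief, on deposited TPM Psph, Shmt1, Shmt2, Asns and Slc7a5 rose and Phgdh fell with hairpin 1. On the same scale Shmt2, Mthfd2 and Slc7a5 rose with hairpin 2. After median-ratio scaling, Shmt1 with hairpin 1 and Shmt2 and Slc7a5 with hairpin 2 were no longer called. Without small-RNA entries, only Psph and Phgdh were called with hairpin 1, and 0 of the 10 genes with hairpin 2. That setting also widened the standard error (SE) of each of the 10 genes but Psph. Tests were made with limma on the log2(TPM + 1) scale across all genes, with a threshold of 0.05 on the Benjamini-Hochberg adjusted p. With hairpin 2, 3 of 10 genes were higher than in shNT and 0 were lower by limma, with 0 lower also at an unadjusted p under 0.05. Of all tested genes, 6.62% were called higher and 3% lower in that comparison. With hairpin 1, 5 of 10 were higher and 1 was lower, where 32.1% of all tested genes were higher and 18.1% lower. In the knockdown comparison (the mean of both hairpin groups minus shNT), 6 of 10 were higher and 1 was lower, beside 27.3% and 12.1% of all tested genes. The median change of the 10 genes was 0.17 with hairpin 2, 0.23 with hairpin 1 and 0.21 in the knockdown comparison on the log2 scale, against 0.09, 0.11 and 0.10 for all tested genes. For 7 of the 10 genes all 4 knockdown libraries lay above both shNT libraries, as for 30.3% of all genes, and for 0 of 10 all 4 lay below, as for 10.4% of all genes; after median-ratio scaling 3 of 10 lay above, as did 16.2% of all genes. With the 4 knockdown libraries taken as a single group, limma called 0 of the 10 genes (4 were higher and 0 lower at an unadjusted p under 0.05) and 0.00866% of all genes.

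The scale of the libraries bears on these counts. The small-RNA entry Mir6236 took 23.4% and 21.4% of all TPM under hairpin 2 and 20.4% and 19.7% with hairpin 1, against 34.1% and 24.3% in shNT. The 2 shNT libraries thus differed more from each other than shNT replicate 2 did from the hairpin 2 libraries. Whether this entry set the shift between groups was not tested. After median-ratio scaling, which sets the typical gene equal between libraries, the median change of all genes was close to 0 in every comparison. The genes called higher then numbered 1 of 10 with hairpin 2, 4 of 10 with hairpin 1 and 4 of 10 in the knockdown comparison, beside 2.12%, 22.7% and 15.1% of all genes. Those called lower were 0 with hairpin 2 by limma (0 at an unadjusted p under 0.05), 1 with hairpin 1 and 1 in the knockdown comparison, beside 4.81%, 24.3% and 18.7% of all genes. Among all calls, the share called higher was 68.8% on deposited TPM and 30.6% after scaling with hairpin 2, 63.8% and 48.2% with hairpin 1, and 69.2% and 44.6% in the knockdown comparison. With small-RNA entries left out and TPM rescaled, limma called Psph higher and Phgdh lower with hairpin 1 and in the knockdown comparison, and 0 of the 10 genes with hairpin 2 (1 was higher at an unadjusted p under 0.05). On that scale 1.3% of all genes were called higher and 3.32% lower with hairpin 2, 15.1% and 24.7% with hairpin 1, and 8.54% and 17.1% in the knockdown comparison. For each gene below, a call that is lost after median-ratio scaling is named. Pthlh itself was listed at 0.0423 and 0.263 TPM under hairpin 2 and at 0 and 0.106 TPM under hairpin 1, against 0.752 and 0.966 TPM in shNT. Without the expression filter, limma gave a Pthlh change of -0.82 ± 0.12 (SE) with hairpin 1 (adjusted p = 0.00837) and -0.69 ± 0.12 with hairpin 2, which missed the threshold (adjusted p = 0.0583). Of 8 epithelial markers, 7 reached 1 TPM, and their summed level was 3919 to 4655 TPM over the 6 libraries. Leukocyte markers summed to 1.33 to 2.86 TPM with Ptprc, the general leukocyte marker, near 0, while fibroblast and endothelial markers stayed below 1 TPM in sum. Acinar markers summed to 11.98 to 12.2 TPM under hairpin 2 and 13.9 TPM under hairpin 1, against 14.5 to 20.3 TPM in shNT. This was almost entirely Cela1, with 4 of the 8 markers, Cpa1 among them, at 0, and its part in the results was not tested.

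**Figure D1:**
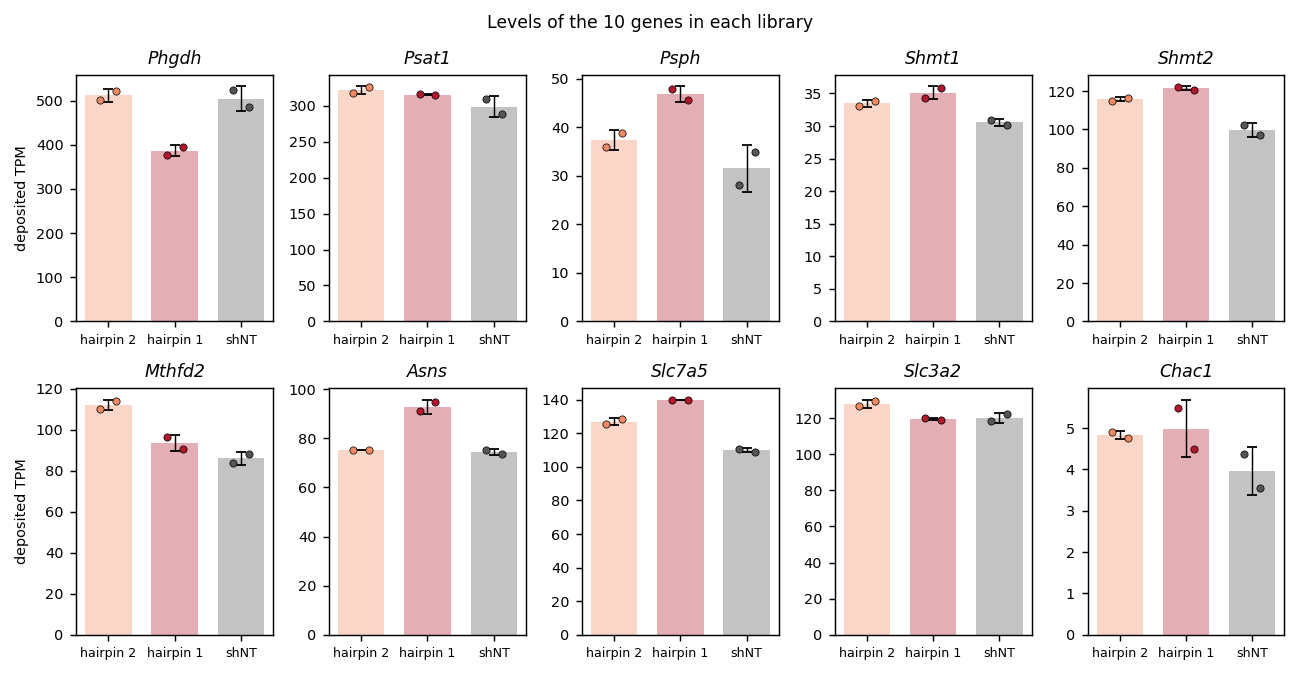
Deposited TPM of the 10 genes, with points for the 6 libraries, bars for the group means and error bars for the SD (n = 2 per group), in the order hairpin 2, hairpin 1 and shNT. The hairpin 1 libraries stand apart below the others for Phgdh (377 and 395 TPM) and above the others for Psph and Asns.

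The levels of the 10 genes spanned a wide range within every library. Phgdh and Psat1 were the most abundant, and Phgdh ranked at percentile 98.4 of tested genes in shNT. Slc3a2, Slc7a5, Shmt2, Mthfd2 and Asns followed between 73.7 and 122 TPM in shNT. Psph and Shmt1 had overlapping levels there and could not be ordered, and Chac1 was the lowest, at percentile 21.4. The order of neighbours differed between groups: Slc3a2 and Slc7a5 overlapped with hairpin 2, whereas with hairpin 1 Slc7a5 lay above Shmt2 and Shmt2 above Slc3a2. Mthfd2 lay above Asns with hairpin 2 and in shNT, while the ranges of these genes overlapped with hairpin 1.

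The 3 enzymes of serine synthesis did not move together. Phgdh (chromosome 3, 98313171 to 98339969, mm10) catalyses the first and committed step. It had 501 and 523 TPM under hairpin 2 and 377 and 395 TPM under hairpin 1, against 524 and 485 TPM in shNT. Both hairpin 1 libraries lay below the other 4, and the hairpin 2 and shNT libraries overlapped. Phgdh fell with hairpin 1 by 0.38 ± 0.06 on the log2 scale (adjusted p = 0.00479, limma), to 76.5% of the shNT mean. With hairpin 2 its level was 101% of the shNT mean and the change was 0.02 (95% interval -0.13 to 0.18, adjusted p = 0.835, limma). The fall with hairpin 1 was called under all 17 alternative settings, with limma adjusted p from 0.00109 to 0.0467. In the knockdown comparison the change of -0.18 ± 0.05 was called (adjusted p = 0.045, limma), but not on leaving out any of 5 of the 6 libraries, all but shNT replicate 2 (adjusted p = 0.0743 to 0.147, limma).

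Psat1 (chromosome 19, 15905123 to 15925059) makes phosphoserine from the product of Phgdh. Its levels were 317 and 325 TPM under hairpin 2 and 316 and 315 TPM under hairpin 1, against 309 and 289 TPM in shNT. Although all 4 knockdown libraries lay above both shNT libraries, the gap was small. The change was 0.11 with hairpin 2 (adjusted p = 0.225, limma), 0.08 with hairpin 1 (adjusted p = 0.257, limma) and 0.09 in the knockdown comparison (95% interval -0.02 to 0.21, adjusted p = 0.158, limma). Without shNT replicate 1 the change passed the threshold with hairpin 1 (adjusted p = 0.0332, limma) and in the knockdown comparison (adjusted p = 0.0269, limma). After median-ratio scaling the hairpin 1 and knockdown changes lay just below 0, and the knockdown libraries lay between the shNT libraries.

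Psph (chromosome 5, 129765558 to 129787443) removes the phosphate in the last step. It had 35.9 and 38.7 TPM under hairpin 2 and 47.9 and 45.7 TPM under hairpin 1, against 28.1 and 34.9 TPM in shNT. On deposited TPM the groups did not overlap, with hairpin 1 highest and shNT lowest. After median-ratio scaling hairpin 2 replicate 1 (35.4) lay below shNT replicate 2 (36.3). Psph rose with hairpin 1 by 0.56 ± 0.10 (adjusted p = 0.00748, limma), to 149% of the shNT mean, which was the largest rise among the 10 genes with that hairpin. This call held under all 17 alternative settings (adjusted p = 0.00083 to 0.0493, limma). With hairpin 2 its level was 119% of the shNT mean and the change of 0.24 ± 0.10 missed the threshold (adjusted p = 0.172, limma), except without shNT replicate 2 (adjusted p = 0.0141, limma). The knockdown change was 0.40 ± 0.09 (adjusted p = 0.0198, limma), and it was lost without hairpin 1 replicate 1 (adjusted p = 0.063, limma), hairpin 1 replicate 2 (adjusted p = 0.0532, limma) or hairpin 2 replicate 2 (adjusted p = 0.0632, limma). With hairpin 1, then, the first enzyme of the route fell, the second did not pass the test and the third rose.

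On deposited TPM, the enzymes that move carbon from serine to folate were higher in the knockdown libraries, by modest amounts. Without small-RNA entries, their knockdown changes of 0.009 (Shmt1), 0.095 (Shmt2) and 0.095 (Mthfd2) were not called. The SE of these changes was also larger in that setting, at 0.086, 0.083 and 0.073, against 0.039, 0.039 and 0.046 on deposited TPM. Shmt1 (chromosome 11, 60788897 to 60811265), the cytosolic form, had 33.1 and 33.9 TPM under hairpin 2 and 34.4 and 35.8 TPM under hairpin 1, against 30.9 and 30.2 TPM in shNT. All 4 knockdown libraries lay above both shNT libraries. Shmt1 rose with hairpin 1 by 0.19 ± 0.04 (adjusted p = 0.016, limma) and in the knockdown comparison by 0.16 ± 0.04 (adjusted p = 0.0245, limma). With hairpin 2 the change of 0.13 ± 0.04 missed the threshold (adjusted p = 0.119, limma). Both calls of Shmt1 were lost after median-ratio scaling (adjusted p of 0.169 with hairpin 1 and of 0.286 in the knockdown comparison, both from limma). Leaving out hairpin 1 replicate 1 or 2 ended the hairpin 1 call (adjusted p = 0.0503 and 0.0998, limma), and leaving out any of 5 libraries, all but shNT replicate 1, ended the knockdown call (adjusted p = 0.0551 to 0.0853, limma).

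Shmt2 (chromosome 10, 127517123 to 127522444), the mitochondrial form, had 115 and 117 TPM under hairpin 2 and 122 and 121 TPM under hairpin 1, against 102 and 97.1 TPM in shNT. The groups did not overlap. Shmt2 rose with hairpin 1 by 0.28 ± 0.04 (adjusted p = 0.00418, limma) and with hairpin 2 by 0.22 ± 0.04 (adjusted p = 0.0436, limma), to 122% and 116% of the shNT mean. The hairpin 1 rise was called after median-ratio scaling (0.18, adjusted p = 0.0239, limma), whereas the hairpin 2 rise was not (0.12, adjusted p = 0.173, limma). Leaving out any of the 4 hairpin libraries also ended the hairpin 2 call, where those of hairpin 1 enter the spread but not the change. The knockdown rise of 0.25 ± 0.04 (adjusted p = 0.00684, limma) was called whichever library was left out.

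Mthfd2 (chromosome 6, 83305704 to 83326011), a mitochondrial folate enzyme that is high in embryos and in many tumours, had 110.2 and 114 TPM under hairpin 2 and 96.3 and 90.7 TPM under hairpin 1, against 83.6 and 88.3 TPM in shNT. On deposited TPM it was highest with hairpin 2, and no groups overlapped. After median-ratio scaling hairpin 1 and shNT overlapped. Mthfd2 rose with hairpin 2 by 0.38 ± 0.05 (adjusted p = 0.0232, limma), to 130% of the shNT mean, at percentile 92.8 of the changes of all tested genes with that hairpin. With hairpin 1 the change of 0.12 ± 0.05 missed the threshold (adjusted p = 0.109, limma), except without shNT replicate 2 (adjusted p = 0.0489, limma). The hairpin 2 rise was called after median-ratio scaling (0.28 ± 0.05, adjusted p = 0.0296, limma), the only such call among the 10 genes. It was lost on leaving out any of the 4 hairpin libraries, of which those of hairpin 1 enter only the spread. The knockdown rise of 0.25 ± 0.05 (adjusted p = 0.0111, limma) was called whichever library was left out and after median-ratio scaling (0.15, adjusted p = 0.0367, limma).

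Asns and Chac1 are the genes of the set whose searched promoter windows held a match to the amino acid response core. The search covered RefSeq windows from 250 bases before to 50 after the start (GRCm38.p6, the mm10 build), 10 windows for 9 of the genes, all but Slc7a5. It used TGATGCAA, TGATGNAA (of which every TGATGCAA match is also a match) and the E-box CACGTG, on both strands. TGATGCAA was found in 294 of 32851 windows (0.895%), and of the 10 windows in that of Chac1, on the opposite strand, starting 193 bases before the start. TGATGNAA was found in 3.97% of windows, and in those of Chac1 and Asns. CACGTG was found in 7.15% of windows and in 0 of the 10. The windows of Mthfd2 (83317555 to 83317854) and Slc3a2 (8713848 to 8714147) lay inside the gene positions given here. The outermost starts of these minus-strand genes were therefore not searched. A match is a description of the letters, and binding was not measured. The 250 bases before the start of both genes are shown because these windows hold the matches, which are in capitals, 5′ to 3′ on the strand of the gene: Asns on the minus strand at chr6:7693210-7693459 and Chac1 on the plus strand at chr2:119350992-119351241.
Asns: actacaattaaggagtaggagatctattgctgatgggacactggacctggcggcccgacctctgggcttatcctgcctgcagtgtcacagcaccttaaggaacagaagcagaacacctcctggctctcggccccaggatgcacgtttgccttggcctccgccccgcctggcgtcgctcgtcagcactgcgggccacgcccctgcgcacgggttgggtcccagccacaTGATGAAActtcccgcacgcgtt
Chac1: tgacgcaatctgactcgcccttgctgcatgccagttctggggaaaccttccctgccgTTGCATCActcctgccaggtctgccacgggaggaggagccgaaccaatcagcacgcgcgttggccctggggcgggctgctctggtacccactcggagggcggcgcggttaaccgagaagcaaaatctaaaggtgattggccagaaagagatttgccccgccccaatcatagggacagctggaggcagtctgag

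Asns (chromosome 6, 7675165 to 7693209) makes asparagine from aspartate and glutamine. It had 75.1 and 75.2 TPM under hairpin 2 and 91.0 and 94.97 TPM under hairpin 1, against 75.4 and 73.7 TPM in shNT. The hairpin 1 libraries stood above the other 4, and hairpin 2 overlapped with shNT. Asns rose with hairpin 1 by 0.31 ± 0.04 (adjusted p = 0.00275, limma), to 125% of the shNT mean, and also after median-ratio scaling (0.21, adjusted p = 0.0154, limma). With hairpin 2 it changed by 0.01 (95% interval -0.10 to 0.12, adjusted p = 0.878, limma). The knockdown rise of 0.16 ± 0.04 (adjusted p = 0.021, limma) was lost after median-ratio scaling (adjusted p = 0.278, limma) and without either hairpin 1 library or either hairpin 2 library (adjusted p = 0.0513 to 0.0759, limma).

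Chac1 (chromosome 2, 119351242 to 119354326) degrades glutathione, a store of cysteine and glycine. Its levels were low, at 4.91 and 4.76 TPM under hairpin 2 and 5.49 and 4.50 TPM under hairpin 1, against 4.38 and 3.55 TPM in shNT. The 4 knockdown libraries lay above both shNT libraries, and hairpin 1 replicate 2 lay close to shNT replicate 1. After median-ratio scaling hairpin 1 replicate 2 lay below shNT replicate 1. The change was 0.24 ± 0.12 with hairpin 2 (adjusted p = 0.229, limma), 0.27 ± 0.12 with hairpin 1 (adjusted p = 0.111, limma) and 0.25 ± 0.10 in the knockdown comparison (adjusted p = 0.103, limma), and none passed. Chac1 lies on chromosome 2, whose 907 tested genes had a median change with hairpin 1 of -0.37 relative to all genes. Set against the median of its own chromosome, Chac1 was higher with hairpin 1 by 0.54 (adjusted p = 0.0164, limma) and in the knockdown comparison by 0.39 (adjusted p = 0.0436, limma), where 20.3% and 12.5% of all genes were called higher in this way.

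Of Slc7a5 and Slc3a2, the chains of the same exchanger, only Slc7a5 was called on deposited TPM, and the changes of the pair were not tested against each other. Slc7a5 (chromosome 8, 121881146 to 121907686), the transporting light chain, had 125 and 129 TPM under hairpin 2 and 139.7 and 140.0 TPM under hairpin 1, against 110.7 and 109 TPM in shNT. The 3 groups did not overlap. Slc7a5 rose with hairpin 1 by 0.34 ± 0.04 (adjusted p = 0.00167, limma) and with hairpin 2 by 0.21 ± 0.04 (adjusted p = 0.0391, limma), to 127% and 116% of the shNT mean. The hairpin 1 rise was lost only when small-RNA entries were left out and TPM rescaled (0.17, adjusted p = 0.16, limma). The hairpin 2 rise was lost after median-ratio scaling (0.11, adjusted p = 0.152, limma). It was also lost on leaving out any of the 4 hairpin libraries, of which those of hairpin 1 enter only the spread. In the knockdown comparison Slc7a5 rose by 0.28 ± 0.04 (adjusted p = 0.00412, limma), and after median-ratio scaling by 0.18 (adjusted p = 0.0149, limma), with the call kept whichever library was left out.

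Slc3a2 (chromosome 19, 8706882 to 8723369), the heavy chain, which also partners other light chains, had 126 and 129.6 TPM under hairpin 2 and 120.0 and 119 TPM under hairpin 1, against 118 and 122 TPM in shNT. Hairpin 2 lay above the other 4 libraries, while hairpin 1 and shNT overlapped. After median-ratio scaling hairpin 2 and shNT overlapped, and hairpin 1 lay below both. The change was 0.09 with hairpin 2 (95% interval -0.01 to 0.20, adjusted p = 0.199, limma) and -0.0078 with hairpin 1 (95% interval -0.11 to 0.10, adjusted p = 0.89, limma). The knockdown change was 0.04 (adjusted p = 0.394, limma), and it lay at -0.06 after median-ratio scaling.

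**Figure D2:**
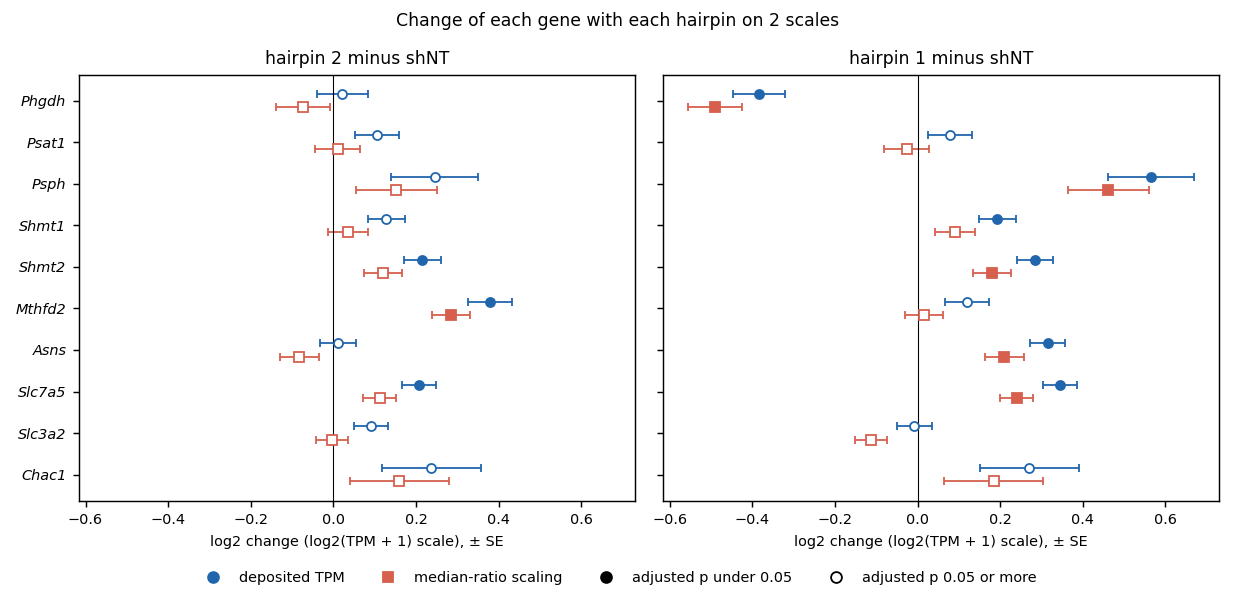
Change of each gene against shNT with hairpin 2 (left) and hairpin 1 (right) on the log2(TPM + 1) scale, with the SE from limma, for deposited TPM (circles) and after median-ratio scaling (squares); filled symbols have an adjusted p under 0.05. Phgdh at -0.38 and Psph at 0.56 lie at opposite ends with hairpin 1, and Mthfd2 at 0.38 is the highest with hairpin 2.

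The hairpins were also compared with each other, where the shNT libraries enter the estimate of the spread but not the change. Of the 10 genes, 2 were higher with hairpin 2 than with hairpin 1 and 2 were lower, beside 19.9% and 20.2% of all tested genes, where the median change of all genes was -0.0058. Phgdh was higher with hairpin 2 by 0.41 ± 0.06 (adjusted p = 0.00542, limma), a call lost without hairpin 1 replicate 1 (adjusted p = 0.0523, limma). Mthfd2 was higher by 0.26 ± 0.05 (adjusted p = 0.0137, limma), and the call was lost without hairpin 1 replicate 2 (adjusted p = 0.0925, limma), hairpin 2 replicate 1 (adjusted p = 0.0611, limma) or hairpin 2 replicate 2 (adjusted p = 0.0899, limma). Asns was lower with hairpin 2, at -0.30 ± 0.04 (adjusted p = 0.00421, limma), whichever library was left out, but not when small-RNA entries were left out (adjusted p = 0.0569, limma). Slc7a5 was lower with hairpin 2, at -0.14 ± 0.04 (adjusted p = 0.0425, limma), which was lost after median-ratio scaling (adjusted p = 0.0514, limma) and on leaving out any of the 4 hairpin libraries. Psph, at -0.32 (95% interval -0.58 to -0.06), missed the threshold (adjusted p = 0.0586, limma). It passed with quantile normalization (adjusted p = 0.0428, limma), without small-RNA entries (adjusted p = 0.0377, limma), in a fit of the hairpin groups alone (adjusted p = 0.00649, limma) and without shNT replicate 1 or 2 (adjusted p = 0.0061 and 0.00601, limma). For Psat1, Shmt1, Shmt2, Slc3a2 and Chac1 the change between hairpins lay between -0.07 and 0.10, with limma adjusted p of 0.118 or more. Slc3a2, at 0.10, passed in a fit of the hairpin groups alone and without shNT replicate 1 or 2 (adjusted p = 0.0474 to 0.0476, limma). The widest of their 95% intervals was that of Chac1, from -0.33 to 0.26.

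Ratios between genes of the same library do not depend on how libraries are scaled, and are given as a description of pairs chosen after their values were seen. Phgdh over Psat1 was 1.58 and 1.61 with hairpin 2 and 1.196 and 1.25 with hairpin 1, against 1.70 and 1.68 in shNT. Psph over Phgdh was 0.0716 and 0.0741 with hairpin 2 and 0.127 and 0.116 with hairpin 1, against 0.0537 and 0.0719 in shNT. Both hairpin 1 libraries lay above the other 4 in this ratio of the last enzyme to the first. Mitochondrial Shmt2 over cytosolic Shmt1 was 3.47 and 3.44 with hairpin 2 and 3.55 and 3.37 with hairpin 1, against 3.30 and 3.21 in shNT. Mthfd2 over Shmt2 was 0.959 and 0.976 with hairpin 2 and 0.788 and 0.751 with hairpin 1, against 0.819 and 0.909 in shNT. The mitochondrial pair was thus closest to equal with hairpin 2 and furthest apart with hairpin 1. Slc7a5 over Slc3a2 was 0.992 and 0.993 with hairpin 2 and 1.16 and 1.18 with hairpin 1, against 0.936 and 0.894 in shNT, so the light chain exceeded the heavy chain in transcript level only in the hairpin 1 libraries. Asns over Psat1 was 0.237 and 0.231 with hairpin 2 and 0.288 and 0.302 with hairpin 1, against 0.244 and 0.255 in shNT.

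**Figure D3:**
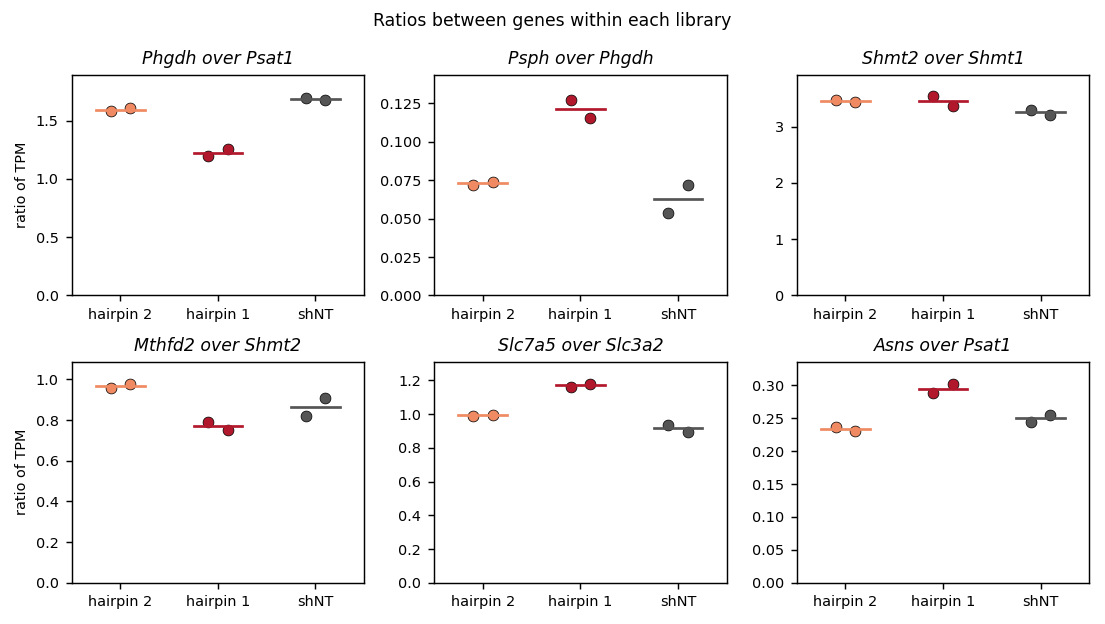
Ratios of TPM between pairs of genes in each library, with points for libraries and lines for group means (n = 2 per group), in the order hairpin 2, hairpin 1 and shNT. The hairpin 1 libraries lie apart from the other 4 for Phgdh over Psat1 (1.196 and 1.25), Psph over Phgdh, Slc7a5 over Slc3a2 and Asns over Psat1.

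The median change against shNT also differed between chromosomes, over a wider range with hairpin 1. Relative to the median of all genes, the median change of chromosome 19, which carries Psat1 and Slc3a2, was -0.17 with hairpin 1. That of chromosome 5, which carries Psph, was 0.11, and those of chromosomes 3, 6, 8, 10 and 11, which carry the other genes but Chac1, lay between 0.04 and 0.09. With hairpin 2 the chromosomes of the 10 genes lay within -0.08 and 0.05. Chromosome 9, which carries no gene of the set, lay at -0.18 with hairpin 2 and at -0.24 with hairpin 1. With each chromosome centred, the rises with hairpin 1 of Shmt1 (0.02, adjusted p = 0.724, limma), Shmt2 (adjusted p = 0.121, limma) and Asns (adjusted p = 0.106, limma) were no longer called. The hairpin 2 rises of Shmt2 (adjusted p = 0.212, limma) and Slc7a5 (adjusted p = 0.162, limma) were not called either. In the knockdown comparison the calls of Psph (adjusted p = 0.0765, limma), Shmt1 (adjusted p = 0.893, limma), Shmt2 (adjusted p = 0.0973, limma), Mthfd2 (adjusted p = 0.111, limma) and Asns (adjusted p = 0.875, limma) were lost.

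Other genes of these routes were counted from lists drawn up with earlier results of these data known. The counts stand beside the shares of all genes given above, 6.62% higher and 3% lower with hairpin 2 and 32.1% higher and 18.1% lower with hairpin 1, and nothing particular to a list is read from them. Among 16 other folate cycle genes, 2 rose and 2 fell with hairpin 2, and 6 rose and 3 fell with hairpin 1. After median-ratio scaling, 0 rose by limma (2 at an unadjusted p under 0.05) and 2 fell with hairpin 2, and 3 rose and 4 fell with hairpin 1. The balance with hairpin 1 thus turned, as it did among all genes. Aldh1l1, which oxidizes formyl-folate in the cytosol, had 1.70 and 1.59 TPM under hairpin 2 and 1.40 and 1.34 TPM under hairpin 1, against 3.35 and 2.57 TPM in shNT. Its fall with hairpin 1 was -0.74 ± 0.12 (adjusted p = 0.00531, limma). Of 15 tested genes of serine use, glycine cleavage and the methionine cycle, 1 rose and 1 fell with hairpin 2, and 4 rose and 1 fell with hairpin 1, or 4 and 4 with hairpin 1 after median-ratio scaling. They included Sfxn1, the mitochondrial serine transporter, at 0.52 ± 0.05 with hairpin 1 (adjusted p = 0.000961, limma). Of 12 purine synthesis genes, 4 rose and 0 fell with hairpin 2, and 4 rose and 2 fell with hairpin 1; after median-ratio scaling, 0 rose by limma (4 at an unadjusted p under 0.05) and 1 fell with hairpin 2, and 3 rose and 4 fell with hairpin 1. At an unadjusted p under 0.05 on deposited TPM, 10 purine genes were higher and 1 was lower with hairpin 2, without a share of all genes to set beside them. The median change of the purine genes with hairpin 2 was 0.15, beside 0.09 for all genes.

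Amino acid transporters other than the Slc7a5 pair moved in both directions with hairpin 1, where 6 of 15 tested rose and 4 fell (6 and 5 after median-ratio scaling). With hairpin 2, limma called 0 of 15 in either direction (5 higher and 0 lower at an unadjusted p under 0.05), in a comparison with fewer calls among all genes. Slc1a5, a transporter of glutamine and other neutral amino acids, had 33.5 and 36.4 TPM under hairpin 2 and 48.8 and 48.2 TPM under hairpin 1, against 25.5 and 29.3 TPM in shNT, and rose with hairpin 1 by 0.80 ± 0.08 (adjusted p = 0.000949, limma). Slc38a1, another glutamine transporter, had 5.47 and 5.57 TPM under hairpin 2 and 2.97 and 2.94 TPM under hairpin 1, against 5.92 and 5.77 TPM in shNT, and fell with hairpin 1 by 0.79 ± 0.06 (adjusted p = 0.000544, limma). Of 17 tested genes of other amino acid synthesis, 6 rose and 0 fell with hairpin 2 (2 were lower at an unadjusted p under 0.05), and 7 rose and 3 fell with hairpin 1. After median-ratio scaling the balance was level or turned, with 1 higher and 1 lower with hairpin 2 and 4 higher and 6 lower with hairpin 1. Among all genes the balance turned with both hairpins. Bcat2, the mitochondrial branched-chain aminotransferase, rose with hairpin 1 by 0.96 ± 0.08 (adjusted p = 0.000598, limma).

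Atf4 transcript itself had 217 and 232 TPM under hairpin 2 and 209 and 201 TPM under hairpin 1, against 201 and 201 TPM in shNT, and its change of 0.16 with hairpin 2 (adjusted p = 0.106, limma) and 0.03 with hairpin 1 (adjusted p = 0.621, limma) missed the threshold. Among the 10 genes of eIF2α kinases and ATF4 control, 1 rose and 0 fell with hairpin 2, and 3 rose and 1 fell with hairpin 1, or 1 and 1 with hairpin 1 after median-ratio scaling. The kinase Eif2ak1 rose with hairpin 1 by 0.54 ± 0.05 (adjusted p = 0.000615, limma), and Myc, which had 103 and 102 TPM under hairpin 2 and 71.1 and 67.3 TPM under hairpin 1, against 106 and 89.5 TPM in shNT, fell with hairpin 1 by 0.49 ± 0.09 (adjusted p = 0.00616, limma). Of 15 tested other ATF4 targets, 1 rose and 0 fell with hairpin 2 (2 were lower at an unadjusted p under 0.05), and 9 rose and 2 fell with hairpin 1, or 6 and 3 after median-ratio scaling. Stc2, a secreted glycoprotein, had 3.96 and 4.64 TPM under hairpin 2 and 16.7 and 17.7 TPM under hairpin 1, against 1.97 and 2.85 TPM in shNT. Its rise with hairpin 1 was 2.43 ± 0.14 (adjusted p = 0.000213, limma). Its rise with hairpin 2 of 0.64 (adjusted p = 0.0474, limma) was lost after median-ratio scaling (adjusted p = 0.0677, limma) and on leaving out any library but shNT replicate 2 (adjusted p = 0.059 to 0.218, limma). Atf3, a stress-induced transcription factor in the same list, moved the other way, at 3.21 and 3.68 TPM under hairpin 2 and 1.49 and 1.45 TPM under hairpin 1, against 4.40 and 4.61 TPM in shNT, and fell with hairpin 1 by 1.16 ± 0.09 (adjusted p = 0.000475, limma).

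Of the 20 cytosolic aminoacyl-tRNA synthetases, which charge tRNAs with amino acids, 5 rose and 1 fell with hairpin 2, and 10 rose and 2 fell with hairpin 1. After median-ratio scaling these counts were 0 and 1 with hairpin 2 by limma (5 and 1 at an unadjusted p under 0.05) and 3 and 4 with hairpin 1. Their direction thus depended on the scale, as that of all genes did. Qars, the glutamine enzyme, fell with hairpin 1 by 0.33 ± 0.05 on deposited TPM (adjusted p = 0.00329, limma) and by 0.43 after median-ratio scaling (adjusted p = 0.00123, limma). Of 9 tested genes of glutathione synthesis and cleavage, 0 were called with hairpin 2 by limma (2 were higher and 0 lower at an unadjusted p under 0.05), and 5 rose and 0 fell with hairpin 1, or 4 and 1 after median-ratio scaling. Gclc, the catalytic subunit of the first enzyme of glutathione synthesis, rose with hairpin 1 by 0.65 ± 0.05 (adjusted p = 0.000503, limma), and Chac2, the relative of Chac1, by 0.77 ± 0.10 (adjusted p = 0.00264, limma). Every hairpin 1 change given for a named gene of these lists was called under each alternative in which the gene was tested, except for Atf4, which was called in none. The median change of the lists ranged from -0.04 to 0.17 with hairpin 2 and from -0.005 to 0.27 with hairpin 1, beside 0.09 and 0.11 for all genes.

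**Figure D4:**
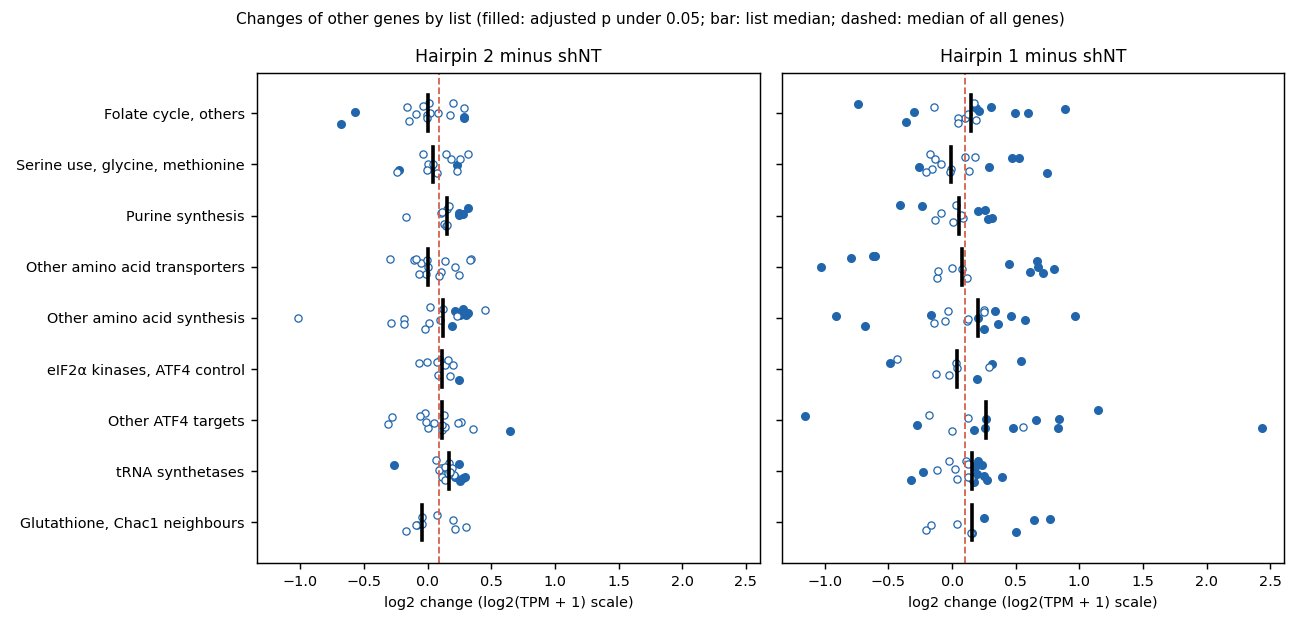
Change of the tested genes of each list against shNT with hairpin 2 (left) and hairpin 1 (right) on the log2(TPM + 1) scale; filled points have an adjusted p under 0.05, black bars are list medians and the dashed line is the median of all genes. Points spread further from 0 with hairpin 1, with Stc2 at 2.43 furthest right.

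Over the 6 libraries the genes most like Psph in pattern were Tmx3 (Pearson r = 0.9985 on the log2(TPM + 1) scale), Mcub and Tmem147, out of 8696 genes with a mean TPM of at least 5. Those most like Slc7a5 were Ppp1r9b (r = 0.9995), Dll1 and Nars, and those most like Chac1 were Frs2 (r = 0.986), Zfp574 and Xrcc3. With 6 libraries in 3 groups such values are common, and 463 genes had an r over 0.95 with Psph, 585 with Slc7a5 and 37 with Chac1, so they describe the shared group pattern of these libraries.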

How the data were processed

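RNA-seq values of 6 libraries were used. The authors deposited gene-level TPM, made with Salmon, R 3.5 and DESeq2 on mm10 per the submitters' processing notes, which state no role for each tool. Each table column was matched to its library by name. TPM was used without rescaling. The 11549 of 24493 genes that reached 1 TPM in 2 or more libraries were tested on log2(TPM + 1) with limma 3.58.1 in R 4.3.3, with 3 group means over all libraries and a variance prior that followed expression; Benjamini-Hochberg adjustment was used with a threshold of 0.05. This scale understates changes of low genes. In a simulated knockdown comparison, the model called 26% of 50 genes given a log2 change of 0.25. It called 68% of 50 genes given 0.5, 88% of 50 given 1 and 0.045% of unchanged genes. The simulation left 11121 of 11321 genes unchanged and gave both hairpins the same change, whereas 3149 genes were called higher and 1401 lower in the data. Its cut-off on the unadjusted p was thus stricter, and these rates are not those of the tests above. The comparisons of single hairpins were not simulated. A change near 0.25 that missed the threshold is not read as absent. Depth is unknown. Replicate numbers were not taken as pairs. Alternatives covered the pseudocount, filter, scaling, small-RNA entries, variance prior, replicate block, compared groups, chromosome medians and each library left out. Named genes were all 10 genes, up to 4 of each list with the smallest knockdown p, Atf4, Myc, and the 3 genes most like each of the 3 genes with the largest knockdown changes; list genes printed with values were picked from these after their values were seen. The 10 genes and the lists were chosen with earlier results of these data known. Positions and promoters are from RefSeq.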

Additional observations from a re-analysis of the deposited data

Results flagged for a closer look

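The change against shNT differed between the hairpins for 4 of the 10 genes, by the limma test of hairpin 2 minus hairpin 1. Of all tested genes, 19.9% were called higher and 20.2% lower in this test. Nothing particular to the set is read from the count. The Slc7a5 call was lost after median-ratio scaling (adjusted p = 0.0514, limma) and the Asns call without small-RNA entries (adjusted p = 0.0569, limma). Losses of the Phgdh, Mthfd2 and Slc7a5 calls on leaving out a library are given above. The clone of each library is not known. The difference was 0.41 for Phgdh, 0.26 for Mthfd2, -0.30 for Asns and -0.14 for Slc7a5 on the log2(TPM + 1) scale. On deposited TPM, Asns rose by 0.31 with hairpin 1, while its hairpin 2 change of 0.01 was not called (adjusted p = 0.878, limma). Slc7a5 was called higher with each hairpin, by 0.34 with hairpin 1 and by 0.21 with hairpin 2. Mthfd2 rose by 0.38 with hairpin 2, while its hairpin 1 change of 0.12 was not called (adjusted p = 0.109, limma).

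Of the 37 named genes of the lists, most of them chosen for a small knockdown p, 21 also differed between the hairpins, 7 higher and 14 lower with hairpin 2, beside 19.9% and 20.2% of all tested genes. Those lower with hairpin 2 than with hairpin 1 were Stc2 (-1.79), Vldlr (-0.89), Bcat2 (-0.73), Nupr1 (-0.69), Gclc (-0.58), Chac2 (-0.57), Mat2b (-0.49), Slc1a5 (-0.46), Sfxn1 (-0.45), Slc1a4 (-0.34), Eif2ak1 (-0.30), Asl (-0.29), Sars (-0.25) and Oat (-0.17). Those higher with hairpin 2 were Atf3 (0.85), Slc38a1 (0.72), Myc (0.56), Slc7a6 (0.51), Fpgs (0.36), Got2 (0.20) and Slc19a1 (0.16). The calls of Stc2, Vldlr, Bcat2, Nupr1, Gclc, Sfxn1, Atf3, Slc38a1, Myc and Slc7a6 held under each alternative in which they were tested. Those of Mat2b, Slc1a5, Asl, Sars, Oat, Chac2, Got2 and Slc19a1 were each lost on leaving out at least 1 library. Those of Slc1a4 (limma adjusted p = 0.0581) and Eif2ak1 (limma adjusted p = 0.0873) were lost when small-RNA entries were left out, and that of Fpgs with each chromosome centred (limma adjusted p = 0.262).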

How the results depend on the processing

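Over the 10 genes, 4 comparisons and up to 17 alternatives, 528 values kept their direction and their side of the threshold, 99 lost the call, 14 gained it and 35 changed sign, of which none was called. In the knockdown comparison the genes called higher numbered 3 with quantile normalization, 1 without small-RNA entries, 0 with the compared groups pooled and 2 with each chromosome centred, and those called lower 0 without the filter, with a constant variance prior, with the replicate block or with pooled groups. With hairpin 1, 3 were higher with quantile normalization, 1 without small-RNA entries and 3 with chromosomes centred. With hairpin 2, 1 was higher with median-ratio scaling, quantile normalization, a constant variance prior or chromosomes centred, and 0 without small-RNA entries, with the replicate block or in a fit of the compared groups. Between hairpins, 1 was lower with median-ratio scaling, without small-RNA entries, with a constant variance prior, with the replicate block or with chromosomes centred. Leaving out 1 library gave 3 to 7 higher and 0 to 1 lower in the knockdown comparison, 4 to 6 higher with hairpin 1, 0 to 4 higher with hairpin 2, and 1 to 3 in each direction between hairpins. The counts of all tested genes moved with the setting too. In the knockdown comparison, 3149 were higher and 1401 lower on deposited TPM, and 1793 and 2095 with quantile normalization. These counts were 964 and 1924 without small-RNA entries, 1405 and 1576 with chromosomes centred, and 1 in either direction with pooled groups. Fewer calls among the 10 genes are therefore not read as particular to them. The cause of these changes in the counts was not tested.

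Signs turned in the order median-ratio scaling, quantile normalization and no small-RNA entries for Psat1 in the knockdown comparison (-0.0082, -0.0624, -0.0637) and with hairpin 1 (-0.0267, -0.0871, -0.0993), for Slc3a2 in the knockdown comparison (-0.0584, -0.0588, -0.1138), and with hairpin 2 for Phgdh (-0.0737, -0.1396, -0.1121) and Asns (-0.083, -0.091, -0.1214). With hairpin 2, Psat1 turned with quantile normalization (-0.0378) and without small-RNA entries (-0.0281), Slc3a2 with median-ratio scaling (-0.0041) and without small-RNA entries (-0.0423), and Shmt1 without small-RNA entries (-0.002). Without small-RNA entries Mthfd2 with hairpin 1 was -0.0564, and Chac1 between hairpins 0.0041. With chromosomes centred, Phgdh (-0.0368), Shmt1 (-0.0053) and Asns (-0.1004) turned with hairpin 2, Mthfd2 (-0.0719) and Slc3a2 (0.0583) with hairpin 1, and Psat1 (-0.1195), Shmt2 (0.0078) and Slc3a2 (-0.0476) between hairpins. With 1 library left out, Slc3a2 with hairpin 1 ranged from -0.0304 to 0.0148 (above 0 without shNT replicate 2), Phgdh with hairpin 2 from -0.0342 to 0.0777 (-0.008 without hairpin 2 replicate 2, lowest without shNT replicate 2), Asns with hairpin 2 from -0.005 (without shNT replicate 2) to 0.0277, and Chac1 between hairpins from -0.1527 to 0.0863 (above 0 without hairpin 1 replicate 1).

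Same-numbered libraries did not deviate together from their group means (r of -0.0439, 0.0211 and 0.0152 across genes), so the replicate block rests on a shared number only. TPM keeps no depth, so no counting error is given, also for Chac1, the lowest of the genes.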
